A study of Homo sapiens with 8 samples.

Results

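CD24, CD44 and 8 further genes used as stemness markers of breast epithelium (PROM1, EPCAM, ALDH1A1, ALDH1A3, SOX2, SOX9, KLF4 and BMI1) were described in MIV-Luc breast cancer cells exposed to IL-13 or depleted of its decoy receptor. The genes were picked by name, and every gene-level row of the deposited table whose gene symbol was one of the 10 names was taken. All 10 genes were found, out of 20193 distinct gene symbols, and they were carried by 11 of the 29141 features tested. EPCAM had 2 features and the other 9 genes had 1 each. The list was put together with earlier results from these arrays known, so the p-values below say where a gene stood in the fit over all features and are not independent evidence for it.

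MIV-Luc cells are MCF10CA1a, the metastatic end of the MCF10A basal-like progression model, made to express luciferase. They were transduced with a lentiviral hairpin, either a scrambled one (shSCR) or one against IL13Rα2 (shIL13Rα2#2), and each line was mock-treated or given IL-13 at 20 ng/ml over 16 h before its RNA was taken. The 4 groups were thus shSCR mock, shSCR with IL-13, shIL13Rα2#2 mock and shIL13Rα2#2 with IL-13, with 2 arrays each and 8 arrays in all, and the arrays of a group are called A and B here. Each construct was represented by a single transduced line and the receptor by a single hairpin, so an effect of losing the receptor and an effect of that hairpin or line cannot be told apart. The study's methods call the arrays of a group biological replicates, and the p-values measure the spread between them only. Values are log2 expression after RMA, the normalization that sets all arrays to one distribution.

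CD44 is a cell-surface receptor for hyaluronan, and CD24 is a small, heavily glycosylated surface protein anchored by a lipid. In breast cancer, cells with much CD44 and little CD24 on their surface have been used as a tumor-initiating fraction, and basal-like lines are typically rich in such cells. PROM1 (CD133) and EPCAM are further surface markers, ALDH1A1 and ALDH1A3 are the retinaldehyde dehydrogenases behind most of the aldehyde dehydrogenase activity used to sort such cells, SOX2, SOX9 and KLF4 are transcription factors of stem and progenitor cells, and BMI1 is a Polycomb subunit. IL-13 signals through IL13Rα1 and IL4Rα to STAT6, while IL13Rα2 binds the ligand without passing on that signal.

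The 250 bases before the transcription start are shown for the 3 genes whose IL-13-treated and mock-treated arrays did not overlap (4.78% of all features did not), CD24, CD44 and ALDH1A3 (RefSeq, GRCh38.p14, 5′ to 3′ on the gene's strand). Capitals mark GC boxes, GGGCGG on either strand, overlapping matches included.
CD24: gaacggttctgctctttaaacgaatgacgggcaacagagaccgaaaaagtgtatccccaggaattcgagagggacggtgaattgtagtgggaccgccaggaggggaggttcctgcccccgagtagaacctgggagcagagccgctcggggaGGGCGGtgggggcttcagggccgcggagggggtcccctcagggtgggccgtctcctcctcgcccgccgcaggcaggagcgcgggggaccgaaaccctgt
CD44: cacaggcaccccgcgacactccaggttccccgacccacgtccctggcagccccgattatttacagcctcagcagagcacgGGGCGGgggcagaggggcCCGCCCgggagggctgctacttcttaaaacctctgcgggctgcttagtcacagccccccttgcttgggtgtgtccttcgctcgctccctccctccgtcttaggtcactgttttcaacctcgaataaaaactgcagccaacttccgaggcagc
ALDH1A3: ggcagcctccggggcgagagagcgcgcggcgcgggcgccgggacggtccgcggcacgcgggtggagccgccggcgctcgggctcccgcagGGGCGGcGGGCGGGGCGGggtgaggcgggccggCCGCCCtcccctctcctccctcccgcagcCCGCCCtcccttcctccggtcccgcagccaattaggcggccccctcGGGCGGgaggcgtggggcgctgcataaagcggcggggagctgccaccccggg
The CD24 window is chr6:106975628-106975877 on the minus strand, the farthest upstream of its 3 listed starts, the CD44 window is chr11:35138921-35139170 on the plus strand and the ALDH1A3 window is chr15:100879581-100879830 on the plus strand. They held 1, 2 and 6 GC boxes, and their GC content was 65.6%, 62.4% and 82.4%, beside a median of 58.0% over all 35116 promoter windows of the same length. GC boxes were present in 42.6% of those windows and in 9 of the 14 windows listed for 8 of the 10 genes. The spaced palindrome TTCNNNNGAA, the form that STAT6 prefers, was found in none of the 14 windows and in 5.38% of all windows, and the shorter TTCNNNGAA in none of the 14 and in 6.57% of all. Both palindromes read the same on either strand.

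The target of the hairpin was measured first. IL13RA2 was at 8.07 and 8.09 on the mock-treated shSCR arrays, 9.36 and 9.33 with IL-13, 6.52 and 6.34 on the mock-treated shIL13Rα2#2 arrays and 8.23 and 8.15 with IL-13. It was thus lower in knockdown cells at either treatment (average log2 difference -1.40, adjusted p = 0.00105 from limma), and higher after IL-13 in either line (1.51, adjusted p = 0.000471 from limma), and IL-13-treated knockdown cells stood 0.11 above mock-treated shSCR cells (adjusted p = 0.815 from limma). Basal keratins were expressed on all arrays (KRT5 9.46 to 9.98, KRT6A 7.96 to 8.40, KRT14 6.54 to 7.04). So were the luminal keratins KRT8 (9.81 to 10.41) and KRT18 (8.01 to 8.60 and 8.75 to 9.60 for its 2 features). Luminal KRT19 (4.88 to 5.31) and basal MYLK (4.48 to 4.86) were lower. On all 8 arrays, 2 of the 14 luminal and 0 of the 13 basal marker features lay below the median of the negative controls. The 2 were PGR and 1 of the 2 ESR1 features. Of the 10 markers of other cell types, PTPRC, VWF and LUM lay below that median on all 8 arrays. PECAM1 was the highest of the 10, at 7.71 to 8.82. Array medians ranged from 5.02 to 5.06.

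CD24 was lower after IL-13 in both lines, and its level in knockdown cells was above that in shSCR cells by a difference that did not pass the test. Its log2 level was 8.64 and 8.85 on the mock-treated shSCR arrays and 7.91 and 8.10 after IL-13. In shIL13Rα2#2 cells it was 9.32 and 9.11 without IL-13 and 8.45 and 8.44 with it. All 4 IL-13-treated arrays were below all 4 mock-treated ones, and no groups overlapped: mock-treated knockdown cells were highest, then mock-treated shSCR cells, then IL-13-treated knockdown cells, then IL-13-treated shSCR cells. Separation of 2 groups was common, at 36.4% to 41.2% of all features in the pairwise comparisons below. The share of all features with 4 separate groups was not computed. The mean IL-13 difference over the 2 lines was -0.75 (SE 0.09, 95% interval -0.97 to -0.54, 1.69-fold lower, adjusted p = 0.0289 from limma). It was -0.74 in shSCR cells and -0.77 in knockdown cells, and the difference between them was -0.03 (95% interval -0.46 to 0.40, adjusted p = 0.998 from limma). In RNA from whole cultures, fewer cells with CD24 and less CD24 RNA per cell cannot be told apart.

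The knockdown difference of CD24 was 0.47 without IL-13 and 0.44 with it (average 0.45, SE 0.09, 95% interval 0.24 to 0.67, adjusted p = 0.121 from limma). Cells with both the knockdown and IL-13 were 0.30 below mock-treated shSCR cells (SE 0.13, adjusted p = 0.523 from limma), so neighbours in the order above were not separated by the test. CD24 carries a limit of its own. The single feature annotated to it lies, in the order of the file, between TTTY14 and BCORP1, the interval where RefSeq places the pseudogene CD24P4, and RefSeq lists 5 CD24 pseudogenes in all. Signal from CD24 and from copies similar to it cannot be told apart with this feature. PECAM1, a marker of endothelium, moved like CD24 (IL-13 -0.52, adjusted p = 0.0938; knockdown 0.53, adjusted p = 0.0615, both from limma), while VWF and PTPRC stayed below the negative-control median. Its part in the result was not tested.

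CD44 was higher after IL-13 in both lines and differed little between the lines. Its level was 11.34 and 11.30 on the mock-treated shSCR arrays and 11.85 and 11.93 after IL-13. In shIL13Rα2#2 cells it was 11.26 and 11.19 without IL-13 and 11.95 and 11.76 with it. The 4 treated arrays were all above the 4 mock-treated ones, and the treated groups of the 2 lines overlapped. The average IL-13 difference was 0.60 (SE 0.08, 95% interval 0.42 to 0.78, 1.52-fold higher, adjusted p = 0.0358 from limma), made up of 0.57 in shSCR cells and 0.63 in knockdown cells. The difference between the lines was 0.06 (95% interval -0.30 to 0.42, adjusted p = 0.998 from limma). The knockdown difference averaged -0.06 (95% interval -0.24 to 0.12, adjusted p = 0.816 from limma).

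**Figure D1:**
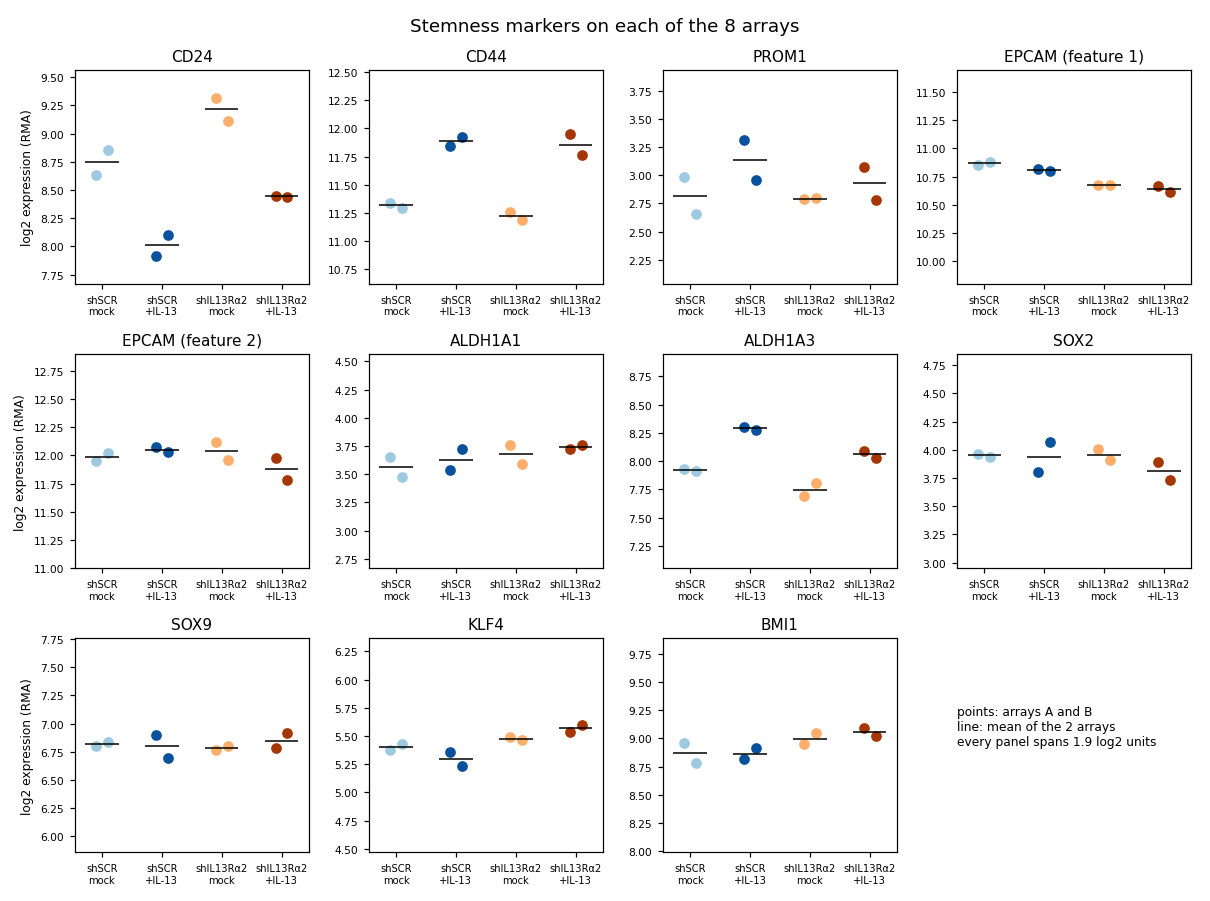
Log2 expression (RMA) of the 11 features of the 10 stemness markers on each array, by construct and treatment; points are arrays A and B, black lines are group means, and every panel spans the same number of log2 units. The 4 IL-13-treated arrays lie below the 4 mock-treated ones for CD24 and above them for CD44 and ALDH1A3.

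CD24 and CD44 were the members whose average IL-13 difference had an adjusted p under 0.05, 2 of 11 features, beside 0.233% of all features tested (0.151% higher and 0.0824% lower). Neither reached a fold change of 2, the size the study's methods ask for, so 0 of 11 were called by limma under both criteria, beside 0.0927% of all features. At an unadjusted p under 0.05 there were 3, CD24, CD44 and ALDH1A3, beside 8.73% of all features. The same 3 had treated and mock-treated arrays that did not overlap, beside 4.78% of all features. Both adjusted calls rested on having all 8 arrays. Leaving out any 1 array moved CD24 within -0.81 to -0.70 with adjusted p between 0.0787 and 0.141, and CD44 within 0.55 to 0.65 with adjusted p between 0.107 and 0.185 (limma), so that neither passed in any of the 8 fits.

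**Figure D2:**
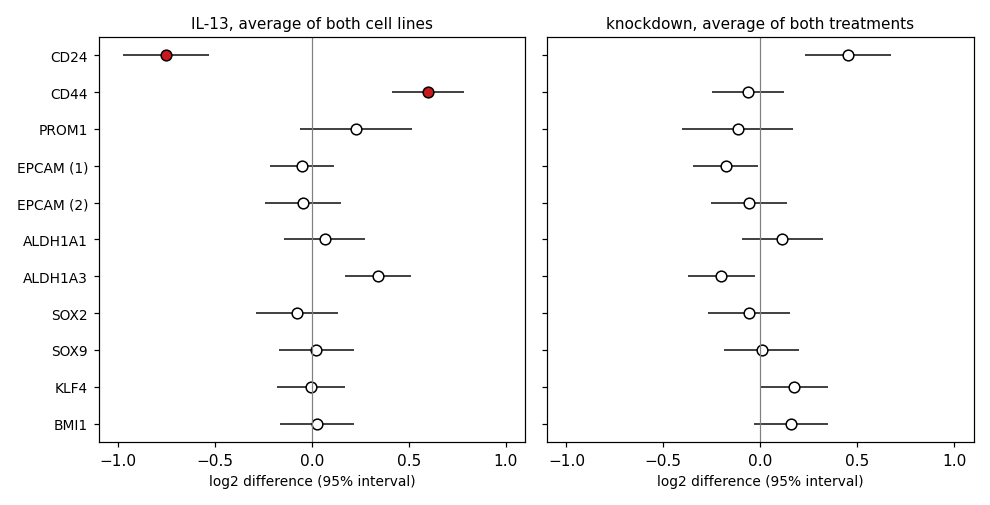
Average log2 difference with its 95% interval for each of the 11 features, for IL-13 over both lines on the left and for the knockdown over both treatments on the right; EPCAM (1) and (2) are its 2 features, and filled points have an adjusted p under 0.05. CD24 at -0.75 and CD44 at 0.60 are the filled points, both on the left.

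Because CD24 and CD44 went in opposite directions, their log2 ratio within an array shifted by more than either gene. This follows by arithmetic from the 2 genes and is no further evidence. The limit of the single CD24 feature applies to the ratio as well. A ratio of 2 features has no absolute meaning on arrays, so it is given relative to its mean on the mock-treated shSCR arrays, which lay at 0.13 and -0.13. It was 1.36 and 1.25 in IL-13-treated shSCR cells (mean 1.31, SD 0.08, n = 2, a 2.47-fold rise of CD44 relative to CD24). In mock-treated knockdown cells it was -0.63 and -0.49 (mean -0.56, SD 0.10, n = 2). In knockdown cells given IL-13 it was 0.92 and 0.75 (mean 0.84, SD 0.12, n = 2). No groups overlapped. RNA levels do not show how the proteins were spread over single cells, and surface CD24 and CD44 were not analysed here.

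**Figure D3:**
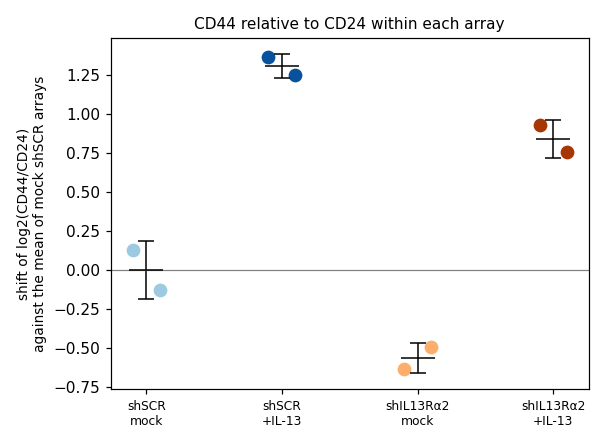
Shift of the log2 ratio of CD44 to CD24 within each array, relative to the mean of the 2 mock-treated shSCR arrays; points are arrays, the wide bar is the group mean and the whiskers are 1 SD (n = 2). Group means are 1.31 and 0.84 with IL-13 in shSCR and knockdown cells, and -0.56 in mock-treated knockdown cells.

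Of the other surface markers, EPCAM, an epithelial adhesion molecule, was high and nearly flat. Its feature 8041853 was 10.86 and 10.88 in mock-treated shSCR cells, 10.81 and 10.80 with IL-13, 10.68 on both mock-treated knockdown arrays, and 10.67 and 10.61 with IL-13. All knockdown arrays were below all shSCR arrays, by 0.18 on average (log2 difference -0.18, SE 0.07, adjusted p = 0.392 from limma). The second EPCAM feature, 8098439, is annotated to the same transcript and lies between NEIL3 and ODZ3 in the file. It ranged from 11.78 to 12.12, with a knockdown difference of -0.06 (SE 0.08, adjusted p = 0.843 from limma), and its 4 knockdown arrays overlapped its 4 shSCR arrays. PROM1, a cholesterol-binding membrane protein, was at 2.65 to 3.32 and lay below the negative-control median on all 8 arrays. Those medians were 4.12 to 4.38, but the 95th percentiles of the same controls were 9.41 to 9.74, so the median is a landmark and not a limit of detection.

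ALDH1A3, which oxidizes retinaldehyde to retinoic acid, was the third member with treated arrays apart from mock-treated ones. It was 7.93 and 7.91 on the mock-treated shSCR arrays and 8.31 and 8.27 with IL-13. In knockdown cells it was 7.69 and 7.80 without IL-13 and 8.09 and 8.03 with it. Each knockdown group lay below the shSCR group of the same treatment, and no groups overlapped. How many of all features have 4 separate groups was not computed. The average IL-13 difference was 0.34 (SE 0.07, 95% interval 0.17 to 0.51, adjusted p = 0.200 from limma) and the average knockdown difference -0.20 (SE 0.07, adjusted p = 0.370 from limma), so neither passed. With a robust prior that follows intensity, the IL-13 difference did (adjusted p = 0.0217 from limma, over a range of 0.0217 to 0.248 among the settings that kept all arrays). ALDH1A1 was at 3.47 to 3.76, below the negative-control median on all 8 arrays, and its IL-13 difference was 0.07 (SE 0.09, adjusted p = 0.883 from limma).

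The transcription factors and BMI1 showed no difference that passed. SOX9, a factor of luminal progenitors, was at 6.70 to 6.92 on all arrays, with an average IL-13 difference of 0.02 (95% interval -0.17 to 0.21) and an average knockdown difference of 0.01 (95% interval -0.18 to 0.20). SOX2, a pluripotency factor, was at 3.73 to 4.07, below the negative-control median on all 8 arrays. KLF4, a zinc-finger factor of epithelial differentiation, was 5.37 and 5.43, 5.36 and 5.24, 5.49 and 5.46, and 5.54 and 5.60 in the 4 groups in the order given above. Its 4 knockdown arrays lay above its 4 shSCR arrays, with an average difference of 0.17 (SE 0.07, adjusted p = 0.439 from limma). BMI1, whose feature lies next to that of COMMD3, was at 8.79 to 9.09 and differed by 0.16 with the knockdown (SE 0.08, adjusted p = 0.516 from limma).

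For the average knockdown difference, 0 of 11 features had an adjusted p under 0.05 by limma, beside 0.446% of all features, and 0 also had a fold change above 2, beside 0.0755%. At an unadjusted p under 0.05 there were 4 (CD24, ALDH1A3, EPCAM feature 8041853 and KLF4), beside 11.3% of all features, and 2 passed after adjustment in limma with a robust prior that follows intensity, CD24 (adjusted p = 0.00767) and EPCAM feature 8041853 (adjusted p = 0.037). Without that prior neither did. For 2 features, EPCAM feature 8041853 and KLF4, the knockdown arrays did not overlap the shSCR arrays, beside 7.13% of all features. The median absolute difference over the 11 features was 0.12 for the knockdown and 0.07 for IL-13, beside 0.09 and 0.09 over all features.

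In the comparisons of 1 group with another, 0 of 11 features had an adjusted p under 0.05 by the main limma fit. The methods' test, as read here, also gave 0. With a fold change above 2 required as well, there were likewise 0. The share of all features with both by limma was 0.0583% for IL-13 in shSCR cells, 0.0652% for the knockdown without IL-13, 0.154% for both against mock-treated shSCR cells, 0.0618% for IL-13 in knockdown cells and 0.0515% for the knockdown among IL-13-treated cells. At an adjusted p alone it was 0.0618%, 0.0686%, 0.285%, 0.0618% and 0.0549% in that order. At an unadjusted p under 0.05 the member counts were 3, 1, 2, 3 and 2, beside 6.79%, 9.51%, 9.56%, 6.93% and 7.07% of all features. Complete separation of the 2 groups' arrays was seen for 6, 5, 8, 6 and 7 of the 11 features, beside 36.7%, 41.2%, 40.3%, 37.4% and 36.4% of all. These comparisons share arrays. For the interaction 0 of 11 features had an adjusted p under 0.05 in limma, beside 0% of all features, and 0 an unadjusted p under 0.05, beside 4.47%. The smallest adjusted p among the members was 0.989.

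Related genes were read from 12 lists of 175 genes, all of them on the array. The lists held partners and relatives of the markers, and markers of luminal, basal and other cell types. They were chosen with earlier results of these data known. Among 17 retinoid pathway genes, LRAT and DHRS9 passed. LRAT, which esterifies retinol for storage, was 8.54 and 8.66 (group means) in mock-treated shSCR and knockdown cells and 9.87 and 9.94 with IL-13 (average log2 difference 1.31, SE 0.09, adjusted p = 0.00196 from limma). DHRS9, a retinol dehydrogenase, was 7.11 and 7.13 in shSCR cells without and with IL-13 and 6.25 and 6.04 in knockdown cells (average knockdown difference -0.97, SE 0.08, adjusted p = 0.00434 from limma). Both passed in all 8 fits that left out an array. The study's own tables of these samples also name LRAT. The other 17 aldehyde dehydrogenase genes had 0 with an adjusted p under 0.05 by limma in either average comparison, and at an unadjusted p under 0.05 there were 3 of 18 features for IL-13, beside 8.73% of all features, and 2 of 18 for the knockdown, beside 11.3%.

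Among 19 hyaluronan and CD44 partner genes, ADAM17, the sheddase of many surface proteins, was lower in knockdown cells (8.51 and 8.64 in shSCR cells without and with IL-13, 7.97 and 8.15 in knockdown cells; average difference -0.52, SE 0.08, adjusted p = 0.0487 from limma), a call lost in all 8 fits that left out an array. HAS3, a hyaluronan synthase, had the largest average IL-13 difference of that list, 0.53 (SE 0.11, adjusted p = 0.175 from limma), and did not pass. None of the 9 partners of CD24, EPCAM and PROM1, 17 SOX, 16 KLF, 19 Polycomb, 12 pluripotency and 17 further mammary stem and progenitor genes passed in limma in either average comparison. At an unadjusted p under 0.05 these 6 lists held 3 of 97 features for IL-13, beside 8.73% of all features, and 9 of 97 for the knockdown, beside 11.3%. PROCR, a marker of mammary stem cells, was nearest, with a knockdown difference of -0.56 (SE 0.10, adjusted p = 0.0709 from limma).

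The 12 luminal and 10 basal marker genes held 3 that passed. TP63, the basal master factor, was 4.96 in mock-treated shSCR cells, 6.05 with IL-13, 6.16 in mock-treated knockdown cells and 6.74 with both (average IL-13 difference 0.84, adjusted p = 0.0463; average knockdown difference 0.94, adjusted p = 0.0225, both from limma). The study chose TP63 on these samples. It also reported higher TP63 by real-time PCR and Western blotting in MIV cells, and by real-time PCR in SUM159 cells. VIM, an intermediate filament of basal and mesenchymal cells, was lower with the knockdown (-0.65, SE 0.08, adjusted p = 0.0214 from limma), as was 1 KRT18 feature, a luminal keratin (-0.60, SE 0.09, adjusted p = 0.0454 from limma). The other KRT18 feature had a knockdown difference of -0.30 and did not pass. Leaving out 1 array kept TP63 in 1 of 8 fits for either effect, and VIM and KRT18 in 0 of 8. The median IL-13 difference of the 13 basal features was -0.16, beside 0.01 over all features. KRT17 and ACTA2 entered that median with more than 1 feature each. At an adjusted p under 0.05 by limma, 1 basal feature was higher after IL-13 and 0 were lower.

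The genes most like CD24, CD44 and ALDH1A3 were taken as the 5 with the highest Pearson r over the 8 arrays among features spanning at least 1 log2 unit, 723 for CD24 and 724 for the others. For CD24 they were CP (ceruloplasmin, r = 0.98), SLITRK6 (0.98), TGFB2 (a TGF-β ligand, 0.97), AGR2 (a secretory-pathway disulfide isomerase, 0.97) and SYTL2 (0.95). Like CD24, all 5 had a negative IL-13 and a positive knockdown difference, AGR2 with -1.29 and 0.48. For CD44 they were ABCC2 (a drug efflux pump, r = 0.99), PDCD1LG2 (0.98), CA2 (carbonic anhydrase, 0.97), CD180 (0.97) and SEMA3A (0.97), with IL-13 differences of 0.71 to 1.54. CD44 itself spanned 0.76 over the arrays, less than the 1 log2 unit asked of these genes. Their larger differences follow from that rule. For ALDH1A3 they were IL7R (r = 0.99), TNS4 (0.97), TNFAIP6 (a hyaluronan-binding protein, 0.97), MIR21 (0.96) and TNC (tenascin C, 0.95). All 5 shared its pattern of a positive IL-13 and a negative knockdown difference. They were selected for that likeness, and the 8 arrays hold only 4 conditions.

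**Figure D4:**
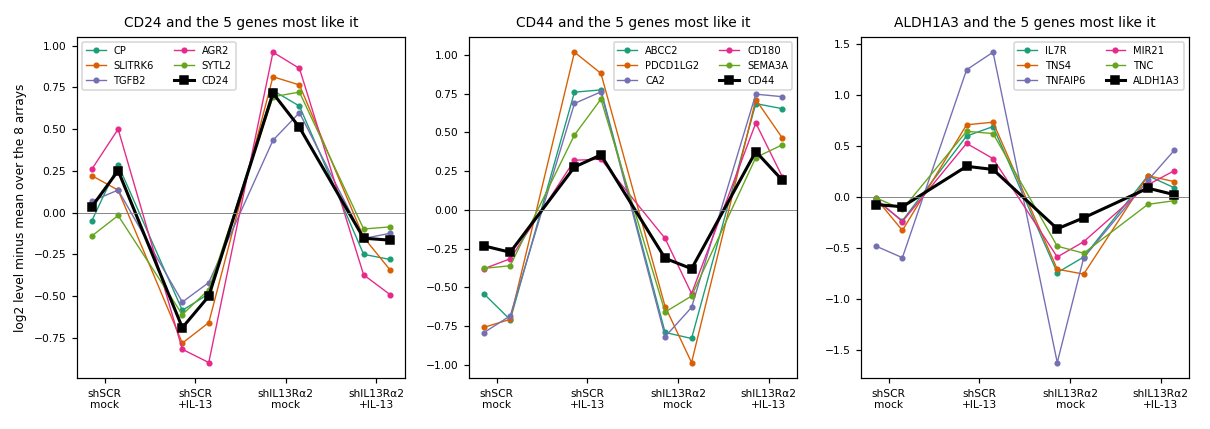
Log2 level minus the mean over the 8 arrays for CD24, CD44 and ALDH1A3 (black squares) and the 5 genes most like each (coloured), with arrays A and B side by side in each group; lines join arrays as a guide only. The CD24 set is lowest in IL-13-treated shSCR cells and highest in mock-treated knockdown cells, and the CD44 set is high in both IL-13-treated groups.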

How the data were processed

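Expression of MIV-Luc cells was measured on 8 Affymetrix arrays, 2 in each of 4 groups. The labels name a human exon array, but the exact type behind the deposited gene-level table could not be settled. The authors deposited log2 values, 1 per gene-level feature and array, made by RMA in Affymetrix Expression Console version 1 (submitters' processing notes), which corrects the background, normalizes all arrays together and summarises the probes of a gene. Columns were placed in groups by construct and treatment in their headings. Arrays are called A and B by column order, a name only. Of 33297 features, 4156 controls were left out and 29141 tested without a filter on signal; 7064 of these had no symbol.

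A model of the 4 group means was fitted to the 8 arrays in limma (version 3.58.1, under R 4.3.3; 4 residual and 3.86 prior degrees of freedom), and p-values were Benjamini-Hochberg adjusted over all tested features. The comparisons were 5 between pairs of groups, the averages of the IL-13 and knockdown effects, and their interaction. A call needed an adjusted p under 0.05 and, except for the interaction, a fold change above 2. Intervals are 95% intervals of that fit, which was tested on simulated data. Precision is limited by how few arrays there are. The members and gene lists were chosen with earlier results of these data known. Named were all members and, from each other list, genes with an adjusted p under 0.05 and those with the 2 largest average effects, of which the text gives a selection. The alternatives comprised the methods' test, that is one-way analysis of variance over the 4 arrays of a pair, limma on those 4 arrays, unadjusted p, other fold thresholds, leaving out the dimmest 30% of features, median shifts, a further quantile normalization, a trended robust prior, 1 feature per symbol and leaving out each array. Promoter sequences came from RefSeq (GRCh38.p14), with entries for 8 of the 10 genes.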

Additional observations from a re-analysis of the deposited data

Results flagged for a closer look

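For 3 of the 54 features described, the IL-13-treated arrays lay apart from the mock-treated ones in one direction in shSCR cells and in the opposite direction in knockdown cells, which is 5.56%, beside 4.7% of all 29141 features. KLF4 was at 5.40 without and 5.30 with IL-13 in shSCR cells, and at 5.47 and 5.57 in knockdown cells (difference between the lines 0.20 on the log2 scale, adjusted p = 0.989 from limma). SOX6 was at 4.16 and 4.30 in shSCR cells, and at 4.48 and 4.28 in knockdown cells (difference -0.33, adjusted p = 0.989 from limma). MME, the basal surface peptidase CD10 and also in the study's own tables, had a difference of -0.93 (adjusted p = 0.989 from limma, unadjusted p = 0.00226), from group means of 4.27 without and 4.80 with IL-13 in shSCR cells to 5.27 and 4.88 in knockdown cells. None passed after adjustment.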

How the results depend on the processing

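Of 1167 recomputed differences of single members, 1109 moved by less than the spread between replicates and 58 by more. The adjusted calls of CD24 and CD44 for the average IL-13 effect were kept with the dimmest features left out, with arrays shifted to one median, with a further quantile normalization, with 1 feature per symbol and with a trended robust prior (adjusted p 0.000312 to 0.0311 for CD24 and 5.72e-05 to 0.0406 for CD44), but 0 to 0 members passed when any 1 array was left out, which also removes a residual degree of freedom. The average IL-13 effect gave 2 called members with a fold change above 1.5 and 2 with no fold threshold, against 0 at a fold of 2. Without adjustment, limma gave 3, 1, 2, 3 and 2 members past p in the 5 pairwise comparisons (in the order of the report) and 4 for the average knockdown effect, and the methods' test gave 3, 1, 2, 3 and 3. With the robust prior that follows intensity, 2 members passed for IL-13 in shSCR cells, 1 for both against mock-treated shSCR cells, 2 for IL-13 in knockdown cells and 2 for the average knockdown effect, CD24 among them (adjusted p = 0.00767). The causes were not tested. Of 23 effects of other named genes with an adjusted p under 0.05, 8 passed in every fit that left out an array, 9 in none, and 20 in every other setting run. The scalings moved the median of all features by at most 0.0141. The methods' test and limma on 4 arrays were run only for the 5 pairwise comparisons. No paired analysis was possible because the columns carry no replicate numbers that match those in the labels.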
